A study of Mus musculus with 6 samples.

Results

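Of the genes that cells induce when oxygen is low, 10 that do not act in glycolysis were followed here in 2 mouse pheochromocytoma (PHEO) cell lines: Bnip3, Bnip3l, Ankrd37, Ndrg1, Vegfa, Car9, Ddit4, Ak4, P4ha1 and Adm. A gene was kept when the platform's annotation maps a probe set to its symbol alone, and the brightest such probe set was used. All 10 genes were found, among 19937 genes measured, with 13 probe sets between them. The comparison is between the lines MTT and MPC, each on 3 Affymetrix Mouse Gene 1.0 ST arrays. Each is 1 permanent line: MPC cells go back to Nf1 knock-out mice, MTT cells are their faster-growing offspring from metastases in the liver, and no treatment is given for either line. The labels of all 6 arrays name liver metastasis as the source and MTT cells in the growth field, so the MPC arrays are known by title and cell type only. The methods used here name 3 separate samples of MTT cells and do not describe the MPC arrays. Whether samples were separate cultures, and at what oxygen they grew, is not given, and a p-value covers just the spread among these arrays, which may be technical.

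When oxygen is plentiful, prolyl hydroxylases mark the alpha subunits of the hypoxia-inducible factors (HIF) for destruction through the VHL protein. When oxygen falls, the subunits last, pair with ARNT and bind short DNA elements with the core RCGTG near their target genes. In PHEO and paraganglioma, mutations of VHL, of HIF-2 alpha and of succinate dehydrogenase are known to switch on this programme, and glycolysis is only one of its arms. The others change mitochondrial turnover and nucleotide balance, collagen folding, growth signalling, blood vessel supply and acidity outside the cell.

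The stretches of DNA before the start sites of these genes are shown because they hold the HIF core in members that fell and in members that did not. RefSeq sequences of GRCm38.p6 from 250 bases before to 50 after a start were at hand for 8 of the 10 genes, in 12 windows; Bnip3l and Ndrg1 had none. ACGTG, read on both strands, was in at least 1 window of 7 of the 8 genes and in 58.3% of the 12 windows, against 19.6% of all 32851 windows of this length. GCGTG was in windows of 7 of the 8 genes and in 83.3% of the 12 windows, against 32.4% of all windows. Of the 4 windows of Ak4, 3 overlap one another and hold the same GCGTG sites, which that share counts 3 times. The ACGTG of Ak4 lies in its other window, and for Vegfa the only ACGTG lies at an inner start of the gene. The genes were chosen as hypoxia targets, so these shares are no test of them. The 250 bases before the start of Bnip3, a mitochondrial receptor for autophagy, are given whole (chr7:138909507-138909756, minus strand), with capitals on the letters CACGTG, which hold ACGTG on both strands and are also the letters of an E-box.
Bnip3: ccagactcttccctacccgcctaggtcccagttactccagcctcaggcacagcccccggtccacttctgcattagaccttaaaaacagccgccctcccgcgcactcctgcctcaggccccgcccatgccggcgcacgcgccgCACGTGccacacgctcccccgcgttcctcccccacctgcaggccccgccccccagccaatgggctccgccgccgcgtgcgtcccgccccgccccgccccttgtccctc

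Shorter windows of 30 bases follow for 5 other members, each 5′ to 3′ along its gene with ACGTG, or CACGT for the other strand, in capitals. They come from chr8:45999851-45999880 (minus strand) for Ankrd37, chr4:101419478-101419507 (plus) for Ak4, chr10:59323266-59323295 (plus) for P4ha1, chr10:59951940-59951969 (minus) for Ddit4 and chr4:43506996-43507025 (plus) for Car9.
Ankrd37: ggctgcacatgtcagtgtttgggtACGTGa
Ak4: cccactctgcccACGTGcggggaccggcag
P4ha1: ggtgtgacagagcgCACGTagcgagggctg
Ddit4: agaacgttgcgaACGTGcgcccggtgccta
Car9: ctatttccgatgCACGTacagcccgtccac
The ACGTG core begins 6 bases before the listed start in Ankrd37, which holds another at 241 bases, 16 in P4ha1 and 18 in Car9, and lies farther off in Ddit4, at 187 bases. In Ak4 it is 213 bases before the start farthest into the gene, again within CACGTG, and the windows of the other 3 starts hold GCGTG only. RefSeq's records of Ankrd37, P4ha1 and Ak4 begin upstream of the starts listed here, so that these are inner starts too. A match of letters is a description and not a shown binding site.

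**Figure D1:**
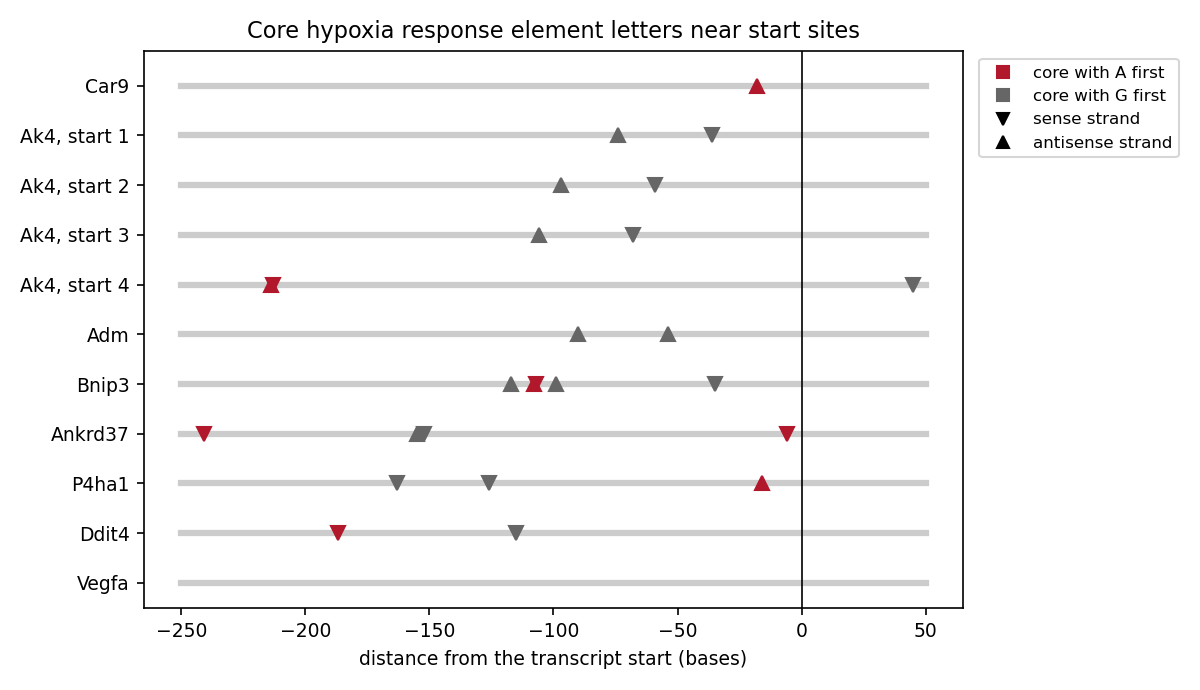
Places of the core letters within 250 bases before and 50 bases after transcript starts of 8 hypoxia target genes (horizontal axis, bases from the start; rows, start sites, without the inner start of Vegfa). Red marks stand for ACGTG and grey marks for GCGTG, pointing down on the sense and up on the antisense strand; the marks of Car9, P4ha1 and Ankrd37 nearest the start are 18, 16 and 6 bases before it.

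MTT cells had less RNA of these genes than MPC cells where the lines differed, and none was called higher. RNA was taken from whole cultures, so that fewer cells with a transcript and less of it per cell cannot be told apart. Of the 10 genes, Ak4, Bnip3 and Ankrd37 were lower in MTT cells by limma (adjusted over all genes, p under 0.05), 7 did not pass, and 5 had an unadjusted p under 0.05, as had 20.5% of all genes. Of all genes tested, 3.94% were lower and 3.93% higher in MTT cells, 7.87% in all. Of the 13 probe sets, 4 were called when all probe sets with 1 symbol were tested, beside 7.43% of those. The log2 difference (MTT minus MPC) was below 0 in 8 of the 10 genes, as in 54.7% of all genes, with a median of -0.10 against -0.01 over all genes. In 7 of the 10 every MTT array read below every MPC array, as in 15.4% of all genes, and in none did every MTT array read above, as in 11.7% (27.2% of all genes did not overlap either way). These shares are over all genes, but 8 of the 10 had a mean signal above the median, and bright genes are called more often. Of 9968 genes above the median, tested alone, 1195 were lower and 1012 higher, and of these 8 members 5 were lower and 0 higher. The differences were small except that of Ak4, of which a second, dimmer probe set stood at -0.15 and was not called. A small difference can be missed with 3 arrays a line. In simulated data over 19937 genes, 100 were changed by 0.25 and 100 by 1 on the log2 scale, and the rest not at all. Of the changes of 0.25, 45 were recovered, and of those of 1, 100. The simulation gave 150 calls and the data 1569, so its adjusted threshold was stricter and its recovery of small changes is not that of the data.

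**Figure D2:**
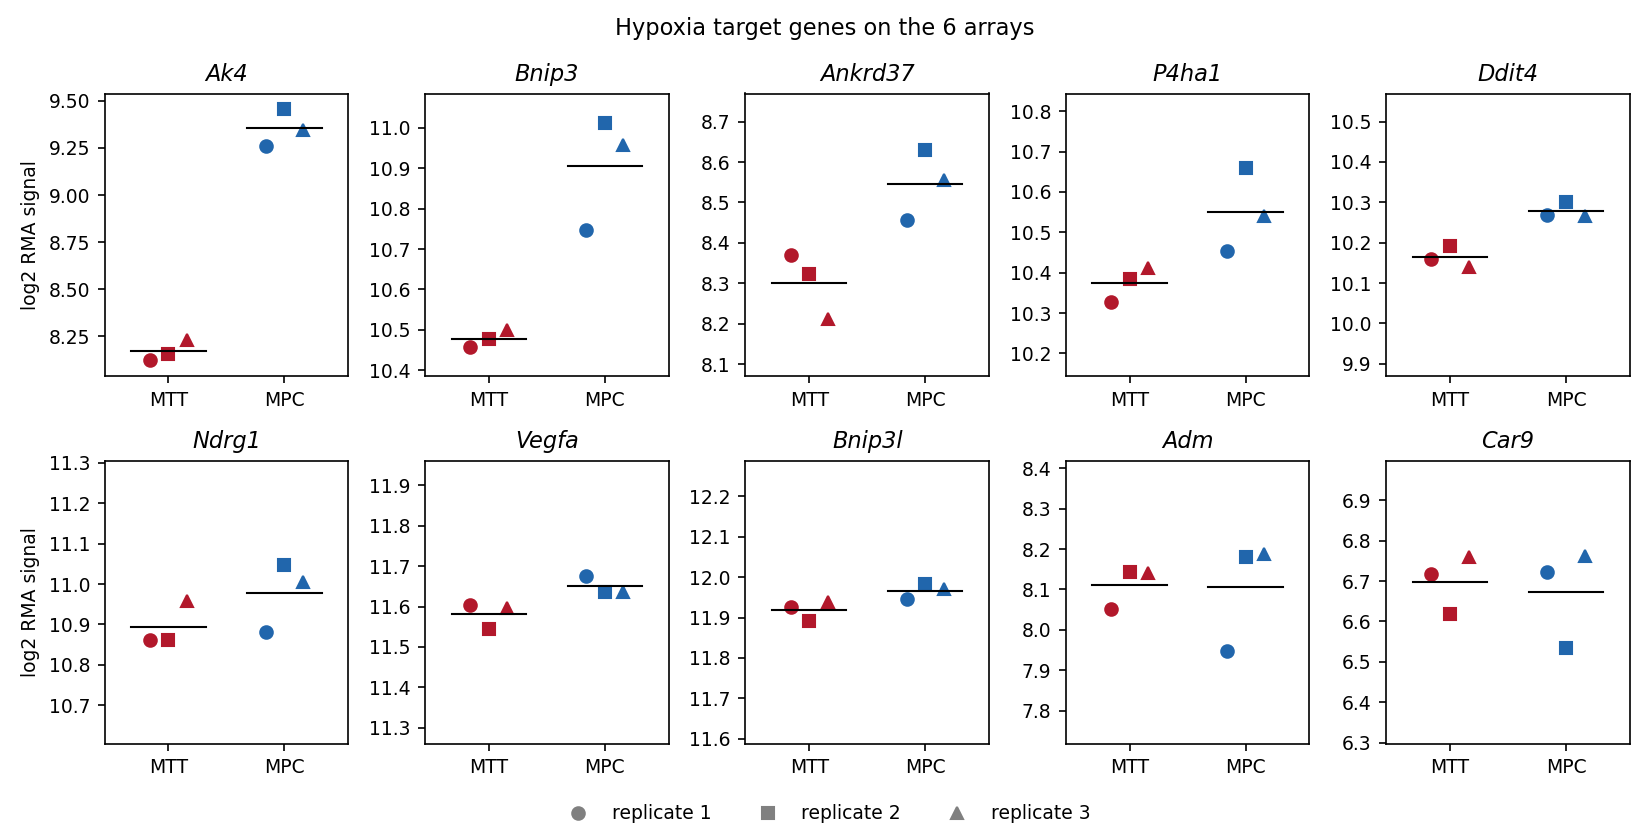
log2 RMA signal (vertical axis) of the 10 genes in MTT (red) and MPC cells (blue), with a point for every array, shaped by its replicate number, and a bar for the mean of 3. The vertical axes span the same range except that of Ak4, which is wider; the means of Ak4 are 8.17 for MTT and 9.35 for MPC cells, and heights of different panels cannot be compared.

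Of both genes of mitochondrial clearance, Bnip3 passed the test and Bnip3l did not. Bnip3 and Bnip3l encode related outer membrane proteins that tether mitochondria to the autophagy machinery. Bnip3 read a log2 signal of 10.46, 10.48 and 10.50 on the MTT arrays and 10.75, 11.01 and 10.96 on the MPC arrays. The MTT arrays lay close together and below all MPC arrays, of which replicate 1 was the lowest. The lines differed by -0.43 on the log2 scale with a standard error of 0.07 (adjusted p = 0.00622 by limma), a signal lower by 25.7% in MTT cells. With ordinary, unmoderated variances it no longer passed (adjusted p = 0.0875; 0.000126 to 0.0875 over all alternatives), but it passed whichever of the 6 arrays was left out. Bnip3l read 11.93, 11.89 and 11.94 in MTT and 11.95, 11.98 and 11.97 in MPC cells. All MTT arrays were below all MPC arrays, but by little, with means -0.05 apart (95% interval -0.12 to 0.03, adjusted p = 0.459 by limma).
Other genes of mitophagy did not follow Bnip3. Of 13 measured receptors and ATG8 proteins, none was lower and 1 was higher, and the median log2 difference was 0.05. Sqstm1, which encodes the autophagy adaptor p62, was the gene called, at 0.18 on the log2 scale (adjusted p = 0.0332 by limma), and it missed the threshold whichever array was left out (adjusted p 0.0532 to 0.121).

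Ak4, a mitochondrial matrix adenylate kinase that passes phosphate between nucleotides, showed the largest difference of the 10 genes. Its brightest probe set read 8.12, 8.16 and 8.23 on the MTT arrays and 9.26, 9.45 and 9.35 on the MPC arrays. The lines were far apart compared with the spread within them, and they differed by -1.18 on the log2 scale with a standard error of 0.05 (adjusted p = 1.52e-05 by limma), a signal 2.27-fold higher in MPC cells. Its MTT signals, like all those of the second set below, lie under the median of all genes, 8.28, and are not shown to lie above background, where fold changes are compressed. A second probe set of Ak4 read 7.81, 7.73 and 7.78 in MTT and 7.90, 7.85 and 8.01 in MPC cells. It too was lower in all MTT arrays, but by only -0.15 on the log2 scale (95% interval -0.26 to -0.04), which did not pass when this set stood for the gene (adjusted p = 0.116 by limma; 1.01e-08 to 0.0118 over the other alternatives). The call of Ak4 thus rests on which probe set is read.
The gap between both probe sets of Ak4, the brighter minus the dimmer, was 0.32, 0.43 and 0.45 on the log2 scale on the MTT arrays. On the MPC arrays it was 1.36, 1.60 and 1.34. The arrays of the lines do not overlap, and the exact two-sided permutation test gives p = 0.1 for this difference, the smallest p that 3 arrays against 3 allow.
Probe set numbers on this array follow the order of the chromosomes, so neighbours in number show where a probe set was designed. For the dimmer set of Ak4 all 8 nearest annotated neighbours are genes of chromosome 4, where Ak4 lies. For the brighter set all 8 are genes of chromosome 2, with Cdca7 before and Sp3os after. Between these genes RefSeq lists 4 pseudogenes, among them Ak3l2-ps, which carries the name of an adenylate kinase. The platform's annotation gives that set to Ak4 alone, and whether it reads Ak4 RNA, another copy or both was not tested. Of its 8 neighbours, Pdk1 and Itga6, an integrin gene named after its value was seen, were lower in MTT cells, at -0.92 and -0.70 on the log2 scale, and the other 6 lay between -0.12 and 0.07 and did not pass (limma over all probe sets).

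**Figure D3:**
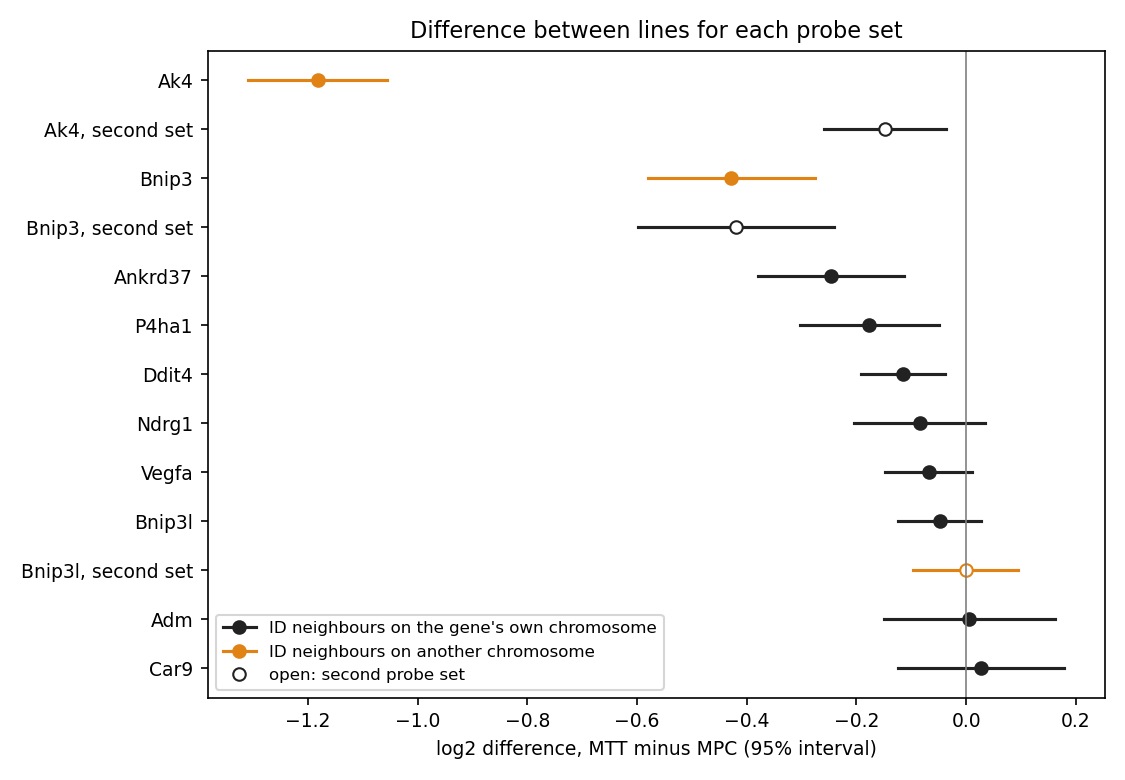
log2 difference between lines (horizontal axis, MTT minus MPC) of the 13 probe sets of the 10 genes, with 95% intervals from limma over all probe sets with 1 symbol. Orange marks probe sets whose neighbours in number lie on another chromosome than the gene, and open circles the dimmer of 2 sets; for Ak4 the sets read -1.18 and -0.15, and for Bnip3 -0.43 and -0.42.

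The same check places the brighter set of Bnip3 among 8 genes of chromosome 14, while Bnip3 lies on chromosome 7. RefSeq lists 5 pseudogenes between the nearest of these neighbours, none with the name of Bnip3, and what this set reads was not tested. Here both probe sets moved alike. The set among neighbours of chromosome 7 read 9.55, 9.70 and 9.77 in MTT and 9.94, 10.17 and 10.16 in MPC cells, -0.42 apart on the log2 scale with a standard error of 0.08 (adjusted p = 0.0141 by limma when this set stood for the gene). The gap between both sets was 0.81 ± 0.10 (SD, n = 3) for MTT cells, and that for MPC cells was 0.81 ± 0.02 (SD, n = 3). For Bnip3l the brighter set lies among neighbours of its own chromosome 14. Its second set, with neighbours on chromosome 12, where RefSeq lists the pseudogene Bnip3l-ps between the nearest of them, read 11.76 on average in both lines. With sets of the genes' own chromosomes throughout, a choice made once the values were known, 2 of the 10 genes were lower in MTT cells, Bnip3 and Ankrd37.

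**Figure D4:**
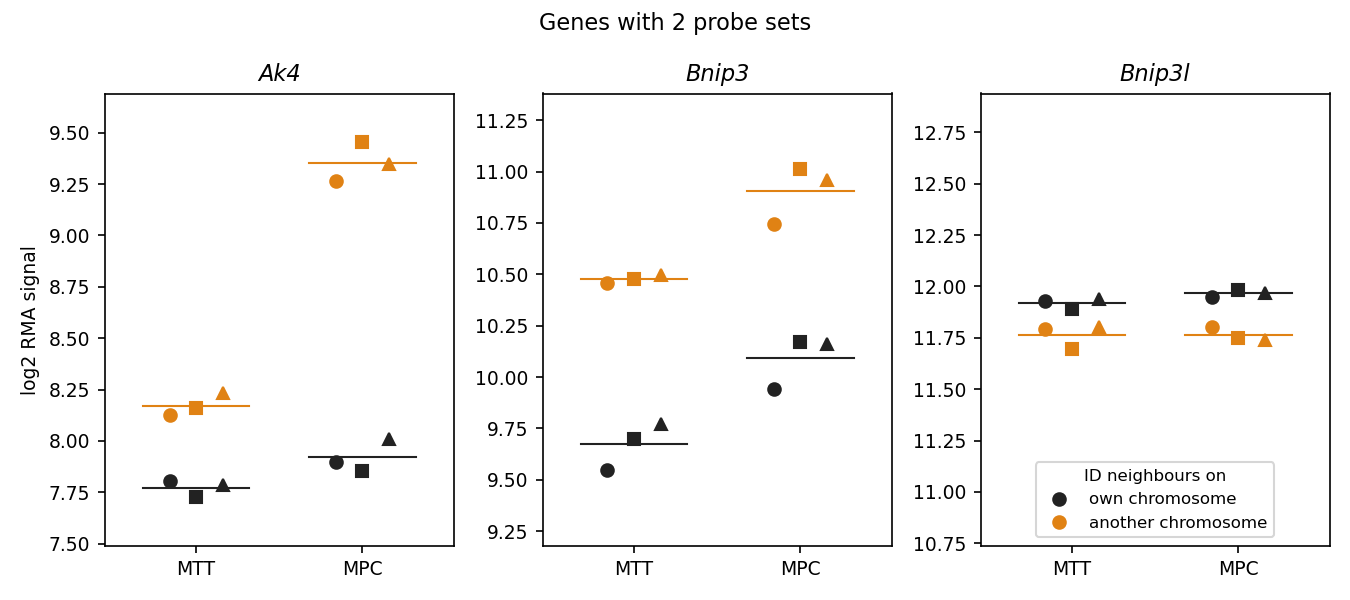
log2 RMA signal (vertical axis) of both probe sets of Ak4, Bnip3 and Bnip3l on the MTT and MPC arrays; points are arrays, with the shape showing the replicate number as a circle, square or triangle for 1, 2 and 3, and bars are means of 3. Black sets have neighbours in number on the gene's own chromosome and orange sets on another; the gap of the Ak4 sets is 0.40 on average in MTT and 1.43 in MPC cells.

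Among the other measured adenylate kinases Ak1, the cytosolic enzyme, fell by 0.27 on the log2 scale (adjusted p = 0.00795 by limma; 0.0649 with ordinary variances) and was the only one of 5 called. Ak3, a mitochondrial matrix enzyme that uses GTP, stood at -0.13 and missed the threshold (adjusted p = 0.0504 by limma). The genes with a signal above the median that were most like the brighter Ak4 set over the 6 arrays were Stard5, which encodes a lipid-binding protein (Pearson's r 0.998), Cdc26, a subunit of the anaphase-promoting complex (0.997), and Aldoc, a glycolytic aldolase (0.997). With 2 lines such values are common: 917 of 9967 genes had an r above 0.9.

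Ankrd37, a small ankyrin repeat protein induced by HIF-1, was the third gene called. It read 8.37, 8.32 and 8.21 in MTT and 8.46, 8.63 and 8.56 in MPC cells. The lowest MPC array, replicate 1, stood just above the highest MTT array. They differed by -0.25 on the log2 scale with a standard error of 0.06 (adjusted p = 0.0375 by limma). Leaving out 1 array, Ankrd37 passed without MPC replicate 1 (adjusted p = 0.0312) and missed in the other 5 fits (0.0582 to 0.119), and it also missed with ordinary variances (0.170).

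P4ha1, a catalytic subunit of the enzyme that hydroxylates proline in collagen, read 10.33, 10.39 and 10.41 in MTT and 10.45, 10.66 and 10.54 in MPC cells. The arrays of the lines did not overlap, but the gap between MTT replicate 3 and MPC replicate 1 was narrow. At -0.18 on the log2 scale (95% interval -0.30 to -0.05) P4ha1 did not pass (adjusted p = 0.104 by limma). Of the alternatives, 2 took it past the threshold, a variance trend with signal (adjusted p = 0.0224) and a test of the brighter genes alone (0.0305), over a range of 0.0224 to 0.270. Of 7 other measured genes of prolyl and lysyl hydroxylases, Plod2, a lysyl hydroxylase that HIF-1 also induces, was the only one called, at -0.24 on the log2 scale (adjusted p = 0.0144 by limma), and it missed without MPC replicate 2 (0.0576) and with ordinary variances (0.0882). P4hb, the partner of P4ha1 in the enzyme, and P4ha2, an alternative catalytic subunit, stood at 0.02 and -0.02 and were named after their values were seen.

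Ddit4, or REDD1, which restrains the growth kinase complex mTORC1 through TSC2, read 10.16, 10.19 and 10.14 in MTT and 10.27, 10.30 and 10.27 in MPC cells. Both lines were tight and apart, but the difference of -0.11 (95% interval -0.19 to -0.04) did not pass (adjusted p = 0.0801 by limma). It passed when the brighter genes alone were tested (0.0173) and with a variance trend (0.0268), over a range up to 0.225. Of 10 other measured genes of REDD and the TSC-mTORC1 axis, Txnip, a glucose-sensitive inhibitor of thioredoxin that binds REDD1, fell by 0.22 on the log2 scale (adjusted p = 0.00551 by limma), and none was higher. Ndrg1, a stress protein that also rises with low oxygen, read 10.86, 10.86 and 10.96 in MTT and 10.88, 11.05 and 11.01 in MPC cells. MTT replicate 3 read above MPC replicate 1, and the lines were -0.09 apart (95% interval -0.20 to 0.03, adjusted p = 0.406 by limma). None of the 3 other NDRG genes passed (limma; 0 at an unadjusted p under 0.05, and 0 with ordinary variances).
Ddit4 also answers to glucocorticoids and to ATF4, the factor of amino acid and protein folding stress. None of 9 glucocorticoid response genes passed by limma, and 0 with ordinary variances. An unadjusted p under 0.05 was seen in 3 of them, as in 20.5% of all genes. In the test of the brighter genes alone 1 was lower, and with a variance trend 0 passed. Of 16 genes of the ATF4 list, 2 were higher and 2 lower, with a median log2 difference of 0.01. Among the brighter genes alone 3 of the list were higher, and with a variance trend 4, with 2 lower in each. The cystine transporter Slc7a11 rose by 0.30 and the stress factor Atf3 by 0.27 on the log2 scale, the latter no longer passing with ordinary variances (adjusted p = 0.0554). All signals of Slc7a11 lie under the median of all genes. Phgdh, the first enzyme of serine synthesis, fell by 0.23 on the log2 scale, and Vldlr, which is also a HIF target, fell by 0.38, again only with moderated variances (0.0712 with ordinary ones).

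Neither secreted factor passed. Vegfa, the growth factor of blood vessels, read 11.60, 11.54 and 11.60 in MTT and 11.68, 11.64 and 11.64 in MPC cells. All MTT arrays read below all MPC arrays, yet the lines were only -0.07 apart (95% interval -0.15 to 0.01) and Vegfa did not pass (adjusted p = 0.311 by limma). Of 9 other ligands and receptors of this family, Nrp2, a coreceptor, was the only one called and fell by 0.35 on the log2 scale (adjusted p = 0.00119 by limma), while the main receptor gene Kdr, named after its value was seen, stood at 0.02 with a signal under the median of all genes.
Adm, which encodes the vessel-widening peptide adrenomedullin, first isolated from pheochromocytoma, read 8.05, 8.14 and 8.14 in MTT and 7.95, 8.18 and 8.19 in MPC cells. MPC replicate 1 was the lowest of the 6 arrays and both other MPC arrays the highest, all under the median of all genes. The means were 0.01 apart (95% interval -0.15 to 0.16, adjusted p = 0.978 by limma). Its receptor genes did differ: Calcrl, the receptor proper, fell by 0.27 on the log2 scale (adjusted p = 0.00553 by limma), and Ramp1, an accessory protein that turns Calcrl toward the related peptide CGRP, fell by 0.37 (adjusted p = 0.00282), at a signal under the median. The other 4 measured genes of this family did not pass, and Ramp2, which makes Calcrl an adrenomedullin receptor, stood at 0.05.
Car9, a carbonic anhydrase outside the cell and a widely used hypoxia marker, read 6.72, 6.62 and 6.76 in MTT and 6.72, 6.53 and 6.76 in MPC cells. All 6 arrays lay under the median of all genes, and the signal is not shown to lie above background. The means were 0.03 apart (95% interval -0.12 to 0.18, adjusted p = 0.879 by limma). Of 15 other carbonic anhydrases 2 were lower and 1 was higher, and 1 of the 15, Car11, had a mean signal above the median. Car11, an inactive relative, fell by 0.21 on the log2 scale and Car12, another hypoxia-induced enzyme of the cell surface, by 0.25, though Car12 missed the threshold with any of 4 arrays left out in turn (adjusted p 0.0557 to 0.102). Car5b, of the mitochondria, stood at 0.20 and missed it for 5 of the 6 arrays (0.0534 to 0.0910).

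The rest of the hypoxia response leaned the same way. Of 32 other measured non-glycolytic targets, 9 were lower and 1 was higher in MTT cells, and 22 did not pass, with a median log2 difference of -0.06. Of 18 glycolytic targets, 4 were lower and 1 was higher, with a median of -0.11. Together 13 of these 50 genes, or 26%, were lower, against 3.94% of all genes. Of the 50 differences 37 were below 0, beside 54.7% of those of all genes, whose median was -0.01. Most of these targets are bright, and bright genes are called more often. Of 9968 genes above the median signal, tested alone, 1195 were lower and 1012 higher. There 11 of 23 other non-glycolytic and 6 of 18 glycolytic targets were lower, and 1 of each was higher. The lists were chosen with earlier results of these data known. The probe sets of 4 of the 50 genes, Higd1a, Hk1, Pgam1 and Pkm, have neighbours on another chromosome than the gene, and without these 12 of 46 genes, or 26.1%, were lower. In the 6 fits without 1 array, 7 to 9 non-glycolytic and 4 or 5 glycolytic targets were lower.
Bhlhe41, or DEC2, a circadian repressor that HIF-1 induces, read 8.74, 8.73 and 8.69 in MTT and 9.38, 9.43 and 9.43 in MPC cells (-0.69 apart, standard error 0.03, adjusted p = 1.92e-05 by limma). Egln3, or PHD3, a HIF prolyl hydroxylase that is itself a target, read 7.82, 7.91 and 8.04 in MTT and 8.58, 8.68 and 8.58 in MPC cells (-0.69 apart, standard error 0.06, adjusted p = 0.000372 by limma). In both genes the lines stood far apart, although the MTT signals of Egln3 lie under the median of all genes. Gbe1, the glycogen branching enzyme, fell by 0.39 on the log2 scale. Of the glycolytic targets, Pdk1, the kinase that closes pyruvate dehydrogenase, read 7.89, 8.01 and 8.26 in MTT and 8.78, 9.20 and 8.96 in MPC cells. Its spread was wide in both lines, and the lines were -0.92 apart with a standard error of 0.12 (adjusted p = 0.00298 by limma; 0.0769 with ordinary variances). All MTT signals of Pdk1 lie under the median of all genes. Aldoc fell by 0.43, Hk2, a hexokinase, by 0.34 and the glucose transporter Slc2a1 by 0.21 on the log2 scale, and each of these 3 passed in every fit without 1 array.
The genes called higher, named after their values were seen, were Cited2, a HIF target that binds p300 and so limits HIF, at 0.19 on the log2 scale, and the phosphofructokinase Pfkp, at 0.20. Cited2 missed the threshold when any of 4 arrays was left out (adjusted p 0.0507 to 0.0879) and with ordinary variances (0.0853), and Pfkp in the fit without MTT replicate 2 (0.0513).
Of 10 genes of HIF and its regulators, 2 were lower, Egln3 and Hif1an, the asparaginyl hydroxylase of HIF (-0.23 apart, adjusted p = 0.0117 by limma). Arnt2, a partner of the alpha subunits in neural cells, was higher, at 0.15. It missed the threshold whichever array was left out (adjusted p 0.0678 to 0.125), and Hif1an missed without MTT replicate 1 (0.0513) and with ordinary variances (0.0649). Egln1, the main prolyl hydroxylase, stood at -0.13 and did not pass (adjusted p = 0.150 by limma). Hif1a, Epas1 and Vhl, named after their values were seen, stood at -0.09, -0.02 and 0.00 and did not pass.

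**Figure D5:**
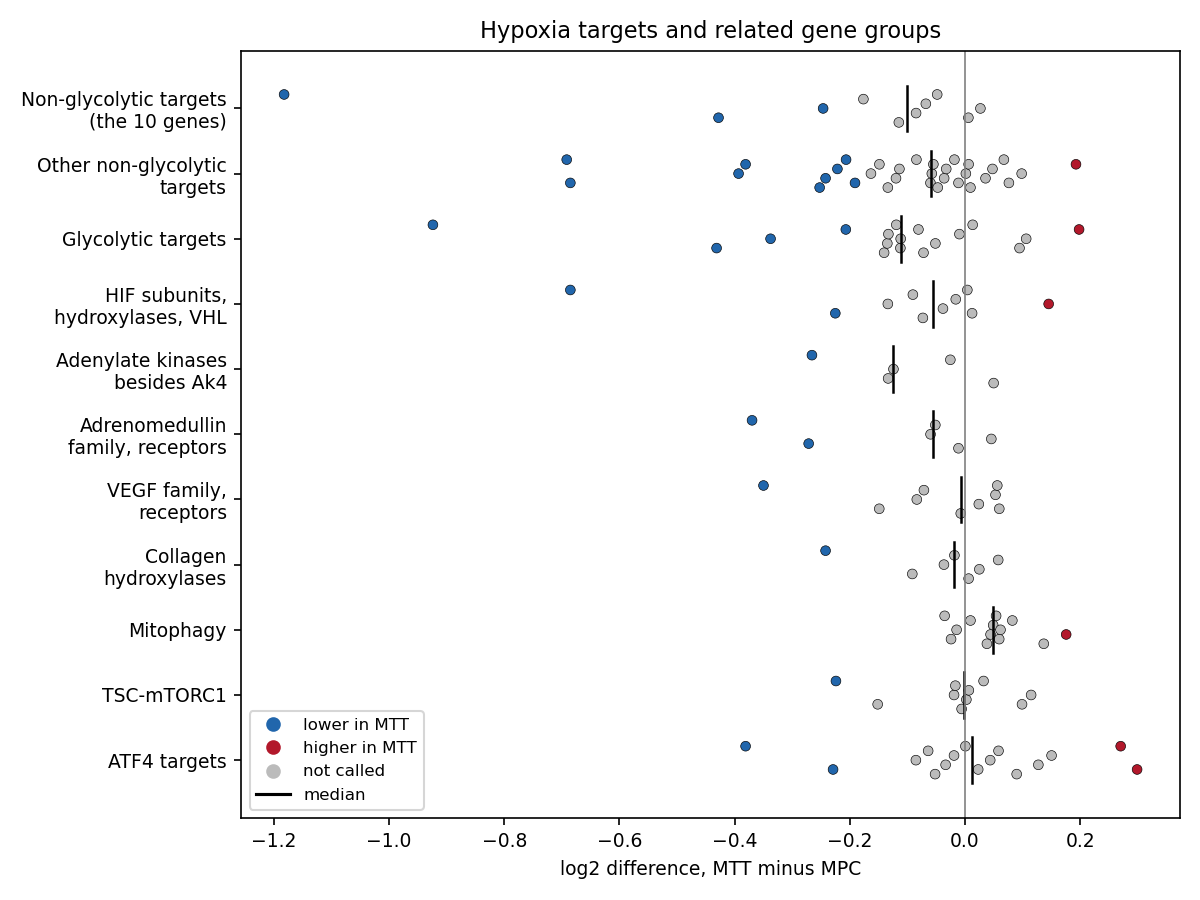
log2 difference between lines (horizontal axis, MTT minus MPC) of the 10 genes and of related gene groups without them (rows); each point is 1 gene, blue where called lower and red where called higher in MTT cells, and vertical bars are medians. The median is -0.10 for the 10 genes, -0.06 for the other non-glycolytic and -0.11 for the glycolytic targets.

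Within MPC cells replicate 1 tended to read low and replicate 2 high for these genes. MPC replicate 1 was the lowest of the 3 MPC arrays for 7 of the 10 genes and MPC replicate 2 the highest for 7, while over all genes the same arrays were lowest in 33.5% and highest in 30.5%. Among the 50 other hypoxia targets MPC replicate 1 was lowest in 25 and MPC replicate 2 highest in 29, and among the 13 of them that were lower in MTT cells, in 9 and 11. The median SD of the 10 genes was 0.09 over the MPC arrays and 0.05 over the MTT arrays, beside 0.05 for the median gene in both lines. These are values of the same 3 arrays and carry no test. Without MPC replicate 1 the count of the 10 genes that were lower was 3, and without any other single array, of either line, it was 2. Of all genes, 429 to 659 were lower in these fits.
Of 9 measured chromaffin markers 8 had a mean signal above the median of all genes, and their mean log2 signal was 11.22 to 11.23 on the MTT and 11.21 to 11.24 on the MPC arrays. Their own calls went both ways, with Slc18a1 at 0.27 and Chgb at -0.15. None of the markers of endothelium, leukocytes, hepatocytes and adrenal cortex, 5 measured for each, and 2 of 6 markers of fibroblasts had a mean signal above the median, and none of these markers passed limma's test; 1 had an unadjusted p under 0.05. The median log2 signal of the arrays was 7.73 to 7.77, and no 2 arrays were identical.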

How the data were processed

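RNA of 3 MTT and 3 MPC samples was hybridised to 1 Affymetrix array each. The authors deposited log2 values after RMA (background subtraction, quantile normalization and summary of probes) by notes and methods that name Partek, R and Affymetrix Expression Console. Arrays give no count of depth, and precision is limited by their number. Of 34760 probe sets, 21640 have 1 gene symbol in the platform's annotation; 1321 with several and 11799 unnamed ones were left out, and 21553 matched RefSeq (GRCm38.p6, used for names, chromosomes, gene order and promoter sequences). The brightest probe set of each of 19937 genes was tested with limma 3.58.1 (lmFit and eBayes, two-sided, Benjamini-Hochberg over all genes) in R 4.3.3; scipy 1.17.1 gave the exact permutation test and matplotlib 3.10.9 the figures. The test was tried on simulated data. Intervals cover 95%. The members, the gene lists and the tests were chosen with earlier results of these data known. Named are the 10 members, up to 4 genes of each list with the smallest p, and genes most like a member with a log2 difference of 0.5 or more; exceptions are marked. Of 16 alternative settings, 6 leave out an array; 2 more, on probe sets of the genes' own chromosomes, were added after seeing the data. Fold changes are compressed at low signal.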

Additional observations from a re-analysis of the deposited data

How the results depend on the processing

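Of 168 values of the 10 genes under the alternatives, 150 kept direction and side of the threshold, 9 lost a call, 4 gained one and 5 changed sign. The sign changes were those of Adm without MTT replicate 2 (-0.0098), MTT replicate 3 (-0.0082) or MPC replicate 1 (-0.073), and of Car9 without MTT replicate 3 (-0.0039) or MPC replicate 2 (-0.043); without 1 array they reached 0.047 for Adm and 0.071 for Car9. The 3 members lower in MTT cells became 1 with ordinary variances, 5 with a mean-variance trend, 5 among genes above the median signal and 2 to 3 without 1 array. In every setting 0 members were higher. All genes lower, 785, became 396, 1302, 1195 and 429 to 659 in the same order. The 1 member left with ordinary variances was Ak4 (adjusted p = 0.0118), read by its brighter set, whose neighbours lie on chromosome 2. Its dimmer set was not tried with those variances. All genes higher, 784, became 428 with ordinary variances, 1114 with the trend and 462 to 617 without 1 array. Of 146 listed genes besides the members, 7 were higher and 21 lower; with ordinary variances 2 were higher, and without 1 array 2 to 4 higher and 19 to 22 lower. Quantile normalization, cyclic loess and median centring moved the median of all genes by less than 0.01 and left 3 members lower. The cause of these changes was not tested.

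The replicate numbers are not shown to pair the arrays: deviations of same-numbered arrays correlated at 0.12, 0.07 and 0.25 over genes, in each case higher than with another number, a hint from the data and not from the design. With the replicate number as a block, 2 members were lower (Ankrd37 adjusted p = 0.0540), and 755 genes were higher and 746 lower in all.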
